A study of Mus musculus with 6 samples.

Results

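Genes that license, open and copy DNA in S phase were described here in mouse ovarian granulosa cells: 47 genes of origin licensing, replicative helicase, polymerases, nucleotide supply and the E2F factors, out of 55860 genes in the deposited tables. They were chosen by gene symbol, and each symbol matched 1 row. Granulosa cells line the ovarian follicle, nurse the oocyte and produce oestrogen and progesterone. Il22r-/- mice, in which the receptor for the cytokine interleukin-22 is disrupted, were compared with Il22r+/+ mice, with 3 libraries each. In both genotypes the cells were isolated from the ovary on a density gradient and kept for 12 h in DMEM-F12 with 10% fetal bovine serum and antibiotics before RNA was taken. Strain, age, pooling of animals and the deleted part of the gene are details not given in the sources used here. What is asked is what the loss of the receptor does to the transcripts of these cells.

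DNA replication starts at origins that are bound by the origin recognition complex. In G1 phase that complex, with Cdc6 and Cdt1, loads rings of MCM helicase subunits onto DNA, and in S phase Cdc45 and the GINS complex join the ring and turn it into the active helicase. Polymerase alpha with primase starts each strand, polymerases delta and epsilon extend it while held by the sliding clamp PCNA, and ligase joins the fragments of the lagging strand. The E2F transcription factors, held in check by the retinoblastoma protein family, switch on most of these genes when a cell commits to division. Granulosa cells divide as the follicle grows.

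Of the 47 genes, all of which had enough reads for the test, 44 were higher in Il22r-/- cells, 1 was lower and 2 did not pass (quasi-likelihood test of edgeR, adjusted p under 0.05 after Benjamini-Hochberg correction over all tested genes). Among all 15227 tested genes 23.6% were called higher, 22.1% lower and 45.7% in either direction. The median log2 change of the 47 genes was 0.86, a 1.82-fold difference, and that of all tested genes was 0.03. In 18 of the 47 the rise was at least 2-fold, which 8.03% of all tested genes reached. In 45 of the 47 genes all 3 Il22r-/- libraries lay above all 3 Il22r+/+ libraries, which held for 28.7% of all tested genes. In bulk RNA a larger share of cells in S phase and more RNA in each such cell cannot be told apart.

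The libraries held 14.9 M to 18.1 M counted reads (M, 1000000), and mitochondrially encoded transcripts took 2.08% to 2.81% of them. Over the 500 most variable genes, the first principal component (89.35% of variance) separated the genotypes, and Il22r-/- replicate 3 stood apart on the second (4.21%). Of Il22ra1, taken as the targeted gene, the Il22r-/- libraries held 5, 2 and 0 reads against 1, 5 and 4 in the Il22r+/+ libraries, too few to check the genotype labels. Levels below are in CPM, counts per 1000000 reads after TMM scaling. Of 14 granulosa markers 6 were higher and 2 lower, with sums of 7911 to 8535 CPM in Il22r-/- and 6133 to 6844 CPM in Il22r+/+. The 2 lower were Foxl2 and Nr5a1 (log2 changes -0.47 and -0.53). Fshr, among those higher, had 313 reads in all Il22r-/- libraries and 13 in all Il22r+/+ libraries. The aromatase gene Cyp19a1 did not pass the filter. It had 1 read in all Il22r-/- libraries and 36 in all Il22r+/+ libraries, 25 of them in replicate 3. Of 12 macrophage markers 9 were higher, with sums of 61.55, 89.8 and 30.2 CPM in Il22r-/- replicates 1 to 3 and 10.7 to 13.7 CPM in Il22r+/+. Of 8 markers of surface epithelium and mesothelium, chosen with their values known, 6 were lower, with sums of 20.1 to 33.8 CPM in Il22r-/- and 667 to 678 CPM in Il22r+/+. Of 8 theca and stroma markers 1 was higher and 2 lower, with sums of 225 to 383 CPM in Il22r-/- and 682 to 703 CPM in Il22r+/+. The higher one, Col1a2, had 3319 reads in all Il22r-/- libraries and 82 in all Il22r+/+ libraries. The lower ones were Dcn (573 and 12329 reads) and Col3a1 (5692 and 15224 reads). Of 6 smooth muscle markers 4 were higher and 1 lower, with sums of 357.5 to 577 CPM in Il22r-/- and 267 to 322 CPM in Il22r+/+. Acta2 made up most of these sums (means of 462 and 277.5 CPM). Actg2 had 916 reads in all Il22r-/- libraries and 27 in all Il22r+/+ libraries. Myh11 had 752 and 36 reads, and Tagln, the lower one, had 173 and 322. Endothelial and oocyte markers summed to at most 7.31 CPM, and lymphocyte markers to at most 0.587 CPM, in any library, with Cd3e, Cd3g, Cd2 and Cd79b at 0 in all 6. Of 6 endothelial markers 2 were higher (Pecam1 and Kdr) and 1 lower (Tek). Cdh5 did not pass the filter, with 62 reads in all Il22r-/- libraries and 2 in all Il22r+/+ libraries. The part of these cell type differences in the results below was not tested. Exons of other genes cover over 5% of the exon length in 14 of the 47 genes, and without the strand setting reads in shared exons cannot be assigned.

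The summed level of the 47 genes was 1856, 1961 and 1930 CPM in the Il22r-/- libraries, against 1095, 1180 and 1125 CPM in the Il22r+/+ libraries. The 2 groups did not overlap, and the lowest Il22r-/- sum was 1.57 times the highest Il22r+/+ sum. The sum gives abundant genes the most weight. The median over the 47 genes of the log2 level relative to each gene's mean was 0.43, 0.54 and 0.38 in the Il22r-/- libraries, against -0.44, -0.33 and -0.44 in the Il22r+/+ libraries, each in the order of replicates 1 to 3. Il22r-/- replicate 3, which stood apart on the second component, thus had the lowest median of its group, and it was the lowest of the 3 libraries for 22 of the genes and the highest for 17. Without that library 45 genes were called higher and 1 lower, and the median log2 change was 0.94, while 26.3% of all tested genes were then higher.

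**Figure D1:**
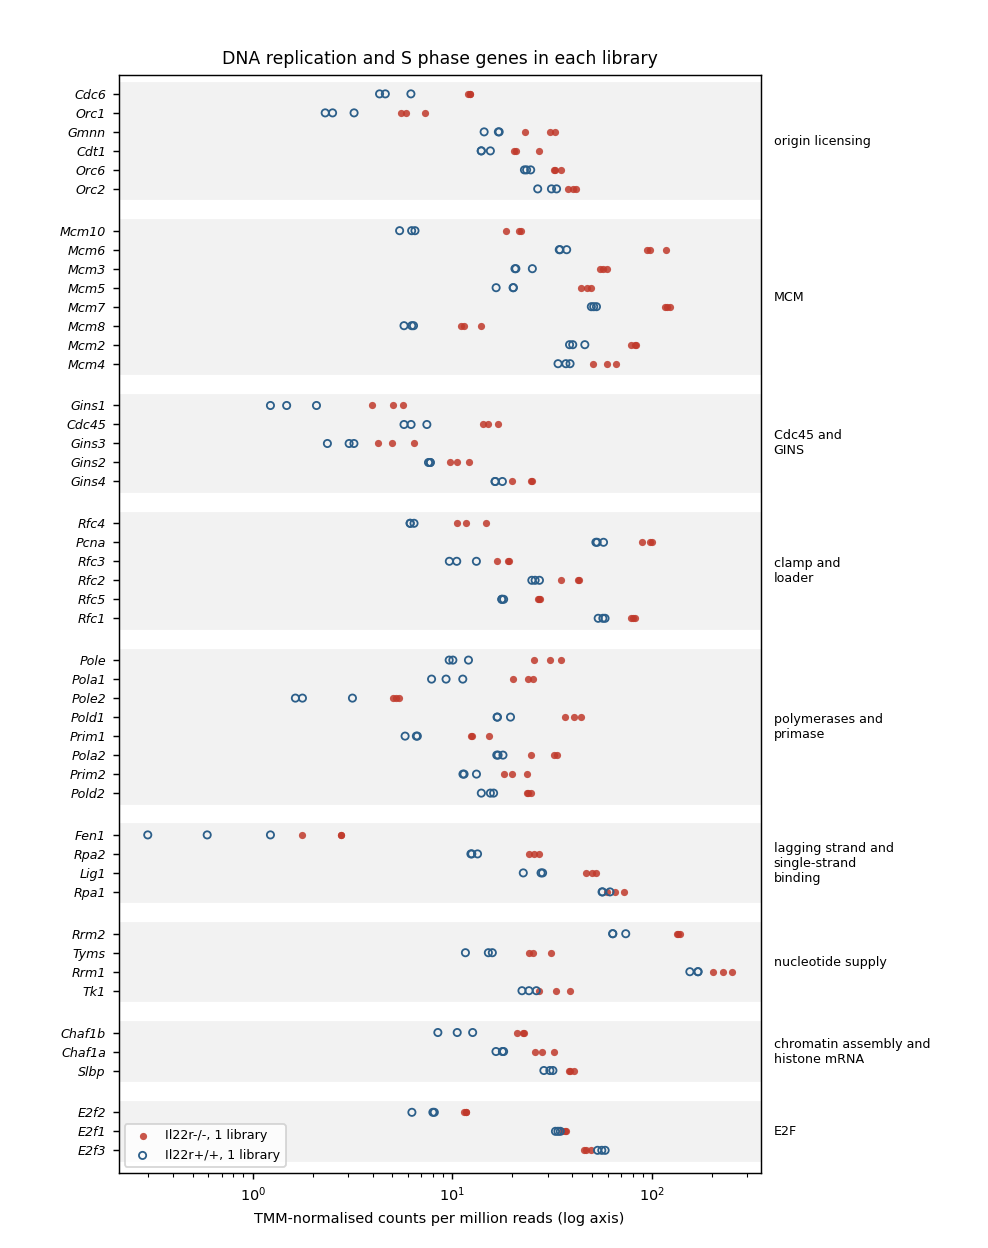
Level of each of the 47 genes in each library, in CPM on a log axis, with genes grouped by role. Filled points are the 3 Il22r-/- libraries and open points the 3 Il22r+/+ libraries; the filled points lie wholly to the right in 45 rows, wholly to the left for E2f3, and overlap the open points for Rpa1.

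The promoters of these genes are shown first because E2F factors are known to act at promoters. RefSeq promoter windows (GRCm38.p6, the same assembly as mm10; 250 bases before the annotated start and 50 after) were found for 39 of the 47 genes, and not for Gins1, Gins2, Gins4, Gmnn, Mcm4, Pole, Prim2 and Rfc2. Each window was searched on both strands for the E2F-type octamers TTTCCCGC, TTTGCCGC, TTTCGCGC and TTTGGCGC. At least 1 octamer was found in 16 of the 39 genes (41.0%), against 704 of all 27025 genes with a window (2.60%). With the core GGCGGGAA in place of the octamers the share was 17.9% (2.52% of all genes), and with the octamers in only the 150 bases before the start it was 20.5% (1.44% of all genes). Some matches share bases, since the reverse complements of TTTGGCGC and TTTCGCGC can overlap a match on the other strand. The windows of the 6 genes with the largest called rise among those that hold a match are printed here 5′ to 3′ on the strand of the gene, with the octamers in capitals.
Mcm6, chr1:128359656-128359955, minus strand: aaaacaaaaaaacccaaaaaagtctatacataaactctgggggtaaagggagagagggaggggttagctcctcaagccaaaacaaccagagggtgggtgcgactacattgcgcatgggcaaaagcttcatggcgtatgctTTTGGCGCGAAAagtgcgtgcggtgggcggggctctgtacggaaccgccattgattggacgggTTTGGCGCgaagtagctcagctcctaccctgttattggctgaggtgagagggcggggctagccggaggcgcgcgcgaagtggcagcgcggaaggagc
Mcm3, chr1:20820263-20820562, minus strand: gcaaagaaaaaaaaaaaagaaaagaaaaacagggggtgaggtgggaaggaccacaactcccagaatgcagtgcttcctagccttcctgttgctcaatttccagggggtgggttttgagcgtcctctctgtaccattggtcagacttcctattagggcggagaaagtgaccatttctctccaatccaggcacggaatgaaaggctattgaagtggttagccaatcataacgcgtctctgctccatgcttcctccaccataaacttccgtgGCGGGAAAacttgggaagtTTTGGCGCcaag
Mcm5, chr8:75109259-75109558, plus strand: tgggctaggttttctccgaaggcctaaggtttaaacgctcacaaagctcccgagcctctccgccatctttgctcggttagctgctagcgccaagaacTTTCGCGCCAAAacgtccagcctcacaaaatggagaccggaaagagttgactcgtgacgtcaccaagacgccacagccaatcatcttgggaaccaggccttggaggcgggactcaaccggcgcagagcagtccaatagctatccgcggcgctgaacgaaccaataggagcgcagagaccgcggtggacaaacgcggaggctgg
Pola1, chrX:93632106-93632405, minus strand: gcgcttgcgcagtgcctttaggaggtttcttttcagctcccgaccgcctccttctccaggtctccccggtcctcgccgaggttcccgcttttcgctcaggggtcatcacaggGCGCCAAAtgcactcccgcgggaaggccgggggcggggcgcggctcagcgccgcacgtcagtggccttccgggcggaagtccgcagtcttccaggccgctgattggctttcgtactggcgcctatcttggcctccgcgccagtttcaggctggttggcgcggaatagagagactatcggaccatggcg
Cdc6, chr11:98907901-98908200, plus strand: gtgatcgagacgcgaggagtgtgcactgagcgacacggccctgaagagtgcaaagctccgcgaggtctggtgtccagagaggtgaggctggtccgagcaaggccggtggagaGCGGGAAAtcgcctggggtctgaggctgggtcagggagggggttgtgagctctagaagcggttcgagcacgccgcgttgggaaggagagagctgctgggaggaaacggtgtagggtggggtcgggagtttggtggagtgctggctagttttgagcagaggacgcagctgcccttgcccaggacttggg
Pole2, chr12:69228141-69228440, minus strand: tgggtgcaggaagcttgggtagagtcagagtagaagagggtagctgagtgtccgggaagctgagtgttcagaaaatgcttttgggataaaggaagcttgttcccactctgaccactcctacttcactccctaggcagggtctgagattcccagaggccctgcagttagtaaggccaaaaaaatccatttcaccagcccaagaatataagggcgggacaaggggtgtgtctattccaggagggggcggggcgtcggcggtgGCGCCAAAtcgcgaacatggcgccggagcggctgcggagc

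Mcm6, the helicase subunit with the largest rise in this set (log2 change 1.54), has 3 octamers, of which 2 overlap to form 1 run of 12 capitals. Mcm3 has its 2 octamers downstream of the annotated start, at positions 19 and 38, counted from 0 at the start. Mcm5 again shows 2 overlapping octamers on opposite strands, 153 bases upstream. Pola1 and Cdc6 have 1 each, both 138 bases upstream of the RefSeq start, and Pole2 has 1 at position 10. Matches were also found in Mcm7, Orc1, Pold1, Mcm8, Lig1, Gins3, Rfc3, Cdt1, E2f2 and E2f3. RefSeq starts can differ from those in the deposited tables, where Cdc6 begins at 98907801, before its window (98907901 to 98908200). The windows of Lig1 and Mcm7 likewise lie inside the gene as given in the deposited tables. In all there were 22 matches, 15 of them starting within 100 bases of the annotated start. The 16 genes with a match had a median log2 change of 1.205, and the 23 genes with a window and no match had 0.81, with ranges that overlap (-0.24 to 1.54 and 0.10 to 1.78). Among tested genes outside the 47, an octamer was found in 6% of 2567 called higher, 3.28% of 2501 called lower and 4.38% of 5547 not called. These are matches of letters and say nothing about whether a factor was bound.

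**Figure D2:**
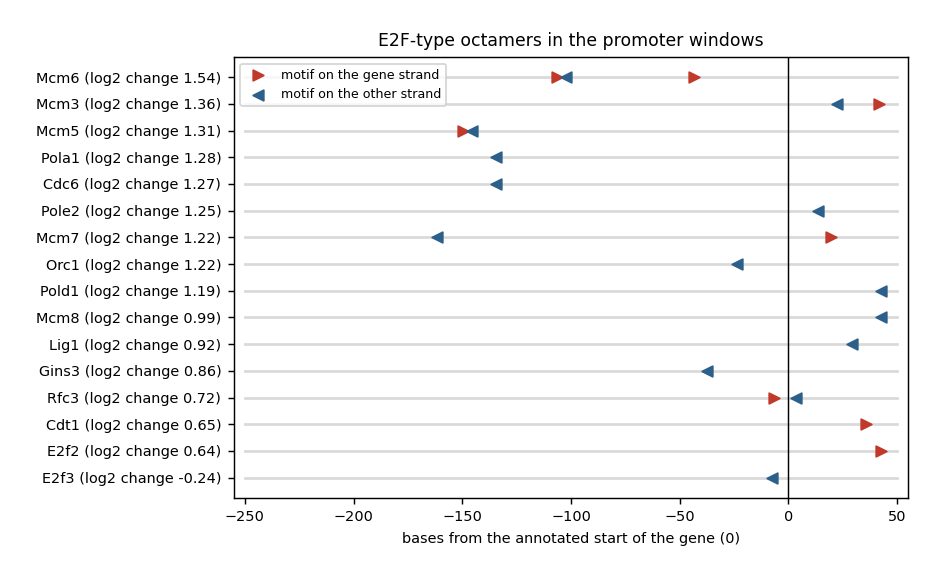
Start-site map of the E2F-type octamers in the 16 promoter windows that hold one, from 250 bases before to 50 bases after the annotated start (0), with genes ordered by log2 change (Il22r-/- minus Il22r+/+). Triangles give the strand of the match, drawn at its centre, and 15 of the 22 matches start within 100 bases of the annotated start.

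Origin licensing genes were higher throughout, 6 of 6, with a median log2 change of 0.74. Cdc6, the ATPase that helps to load the MCM ring (chr11), had 12.3, 12.0 and 12.3 CPM in Il22r-/- replicates 1 to 3, against 4.62, 6.21 and 4.32 CPM in Il22r+/+. The Il22r-/- libraries were nearly equal and all lay above the Il22r+/+ libraries, a log2 change of 1.27 ± 0.17 (SE; edgeR adjusted p = 0.000157). Orc2, a subunit of the origin recognition complex, had 40.2, 38.2 and 41.6 CPM in Il22r-/- and 26.8, 33.3 and 31.4 CPM in Il22r+/+, with the smallest rise of this set (1.31-fold, adjusted p = 0.00836). Nif3l1 shares 29.8% of the Orc2 exon length on the opposite strand. The largest subunit gene Orc1 rose 2.33-fold and Orc6 1.40-fold. Cdt1, the loading factor, and Gmnn, which encodes its inhibitor geminin, both rose, by 1.57-fold and 1.79-fold.

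All 8 MCM genes were higher, with a median log2 change of 1.27, and 5 of them at least 2-fold. Mcm10, which is not a ring subunit and helps to fire the helicase, had 18.6, 22.0 and 21.7 CPM in Il22r-/-, against 6.26, 6.504 and 5.45 CPM in Il22r+/+ (3.42-fold, log2 change 1.77 ± 0.14, adjusted p = 4.03e-06). Among the ring subunits Mcm2 to Mcm7, Mcm6 showed the largest change, with 94.4, 97.9 and 118 CPM in Il22r-/- and 34.6, 37.4 and 34.3 CPM in Il22r+/+ (2.91-fold). Mcm7, whose level per length was the highest of the ring, had 116, 119 and 123 CPM in Il22r-/- and 49.7, 52.8 and 51.1 CPM in Il22r+/+, and its adjusted p of 6.32e-07 was the lowest of the 47 genes. In all 3 genes the gap between the genotypes was wider than the range within either. Exons of other genes cover 12.6% of the Mcm7 exon length.

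Mcm4 had the smallest change of the ring, with 50.5, 59.6 and 65.7 CPM in Il22r-/- and 33.9, 38.9 and 37.1 CPM in Il22r+/+ (1.60-fold, log2 change 0.68 ± 0.11). The ring holds its 6 subunits in equal number, and the other subunit transcripts rose 2.57-fold (Mcm3), 2.48-fold (Mcm5) and 1.95-fold (Mcm2). Differences in fold between subunits, here and in the sets below, were not tested. Per kilobase of gene length, the subunit transcripts spanned 11.8 FPKM (Mcm2) to 27.2 FPKM (Mcm7) in Il22r-/- and 4.89 FPKM (Mcm5) to 11.9 FPKM (Mcm7) in Il22r+/+. Mcm8, a related helicase gene that acts in meiosis and DNA repair, rose 1.98-fold to 12.1 ± 1.55 CPM in Il22r-/-, against 6.13 ± 0.352 CPM in Il22r+/+ (SD, n = 3 each).

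Cdc45 and the 4 GINS genes, which complete the active helicase, were all higher, with folds from 1.38 to 3.05. Gins1 was a rare transcript with 5.04, 5.66 and 3.94 CPM in Il22r-/- and 1.23, 2.09 and 1.48 CPM in Il22r+/+ (262 and 81 reads in all), and rose 3.05-fold. Gins4 had 24.7, 25.2 and 19.8 CPM in Il22r-/-, against 16.4, 16.4 and 17.8 CPM in Il22r+/+ (1.38-fold, adjusted p = 0.00916). Its Il22r-/- replicate 3 lay nearest to the Il22r+/+ libraries. Cdc45 rose 2.37-fold, with 15.4 ± 1.37 CPM in Il22r-/- and 6.47 ± 0.891 CPM in Il22r+/+.

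Gins2 and Gins3 rose 1.41-fold and 1.82-fold, and each lost its call when either of 2 libraries was left out. For Gins2 these were Il22r-/- replicate 1 (adjusted p = 0.0696) and Il22r+/+ replicate 1 (0.0588), in a range from 0.00688 over 16 alternatives. For Gins3 they were Il22r-/- replicate 1 (0.0506) and Il22r+/+ replicate 3 (0.0535), in a range from 0.00354. Exons of Gse1 cover 67.3% of the Gins2 exon length on the opposite strand, and Gse1 itself counted 442, 499 and 473 in the Il22r-/- libraries against 1103, 984 and 910 in the Il22r+/+ libraries.

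The sliding clamp and its loader rose with all 6 genes, none of them 2-fold, and with a median log2 change of 0.67. Pcna, the clamp that tethers polymerases to DNA, had 98.1, 100.04 and 88.9 CPM in Il22r-/- and 52.4, 57.2 and 53.2 CPM in Il22r+/+ (1.76-fold, log2 change 0.82 ± 0.08, adjusted p = 1.68e-05). Its processed copy Pcna-ps2 took 15 to 26 reads per library, against 2753 Pcna reads in all Il22r+/+ libraries. Rfc4, a subunit of the loader, had 11.7, 14.7 and 10.6 CPM in Il22r-/- and 6.43, 6.15 and 6.16 CPM in Il22r+/+, the largest rise of the set at 1.97-fold. Exons of Eif4a2, with 6079 to 9126 reads per library, cover 12.65% of the Rfc4 exon length on the opposite strand. The large subunit gene Rfc1 had 80.8, 82.4 and 78.5 CPM in Il22r-/- and 53.8, 58.2 and 56.8 CPM in Il22r+/+ (1.43-fold). Rfc2, Rfc3 and Rfc5 rose 1.54-fold, 1.64-fold and 1.52-fold.

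All 8 polymerase and primase genes were higher, 5 of them at least 2-fold. Pole, the catalytic subunit of the leading-strand polymerase epsilon, had 25.5, 30.8 and 34.9 CPM in Il22r-/-, against 9.65, 12.1 and 10.1 CPM in Il22r+/+ (2.87-fold, log2 change 1.52 ± 0.14). Pold1, the catalytic subunit of polymerase delta, had 36.7, 40.9 and 44.1 CPM in Il22r-/- and 16.8, 19.6 and 16.8 CPM in Il22r+/+ (2.28-fold). Pold2, its accessory subunit, showed the smallest rise of the set, with 24.9, 23.8 and 23.6 CPM in Il22r-/- and 13.98, 15.5 and 16.1 CPM in Il22r+/+ (1.59-fold, adjusted p = 0.000484). In polymerase alpha and its primase, the catalytic genes Pola1 and Prim1 rose 2.43-fold and 2.11-fold, and the partner genes Pola2 and Prim2 1.76-fold and 1.71-fold. Pole2, the second subunit of polymerase epsilon, rose 2.38-fold from a low level, with 276 reads in Il22r-/- and 111 in Il22r+/+.

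**Figure D3:**
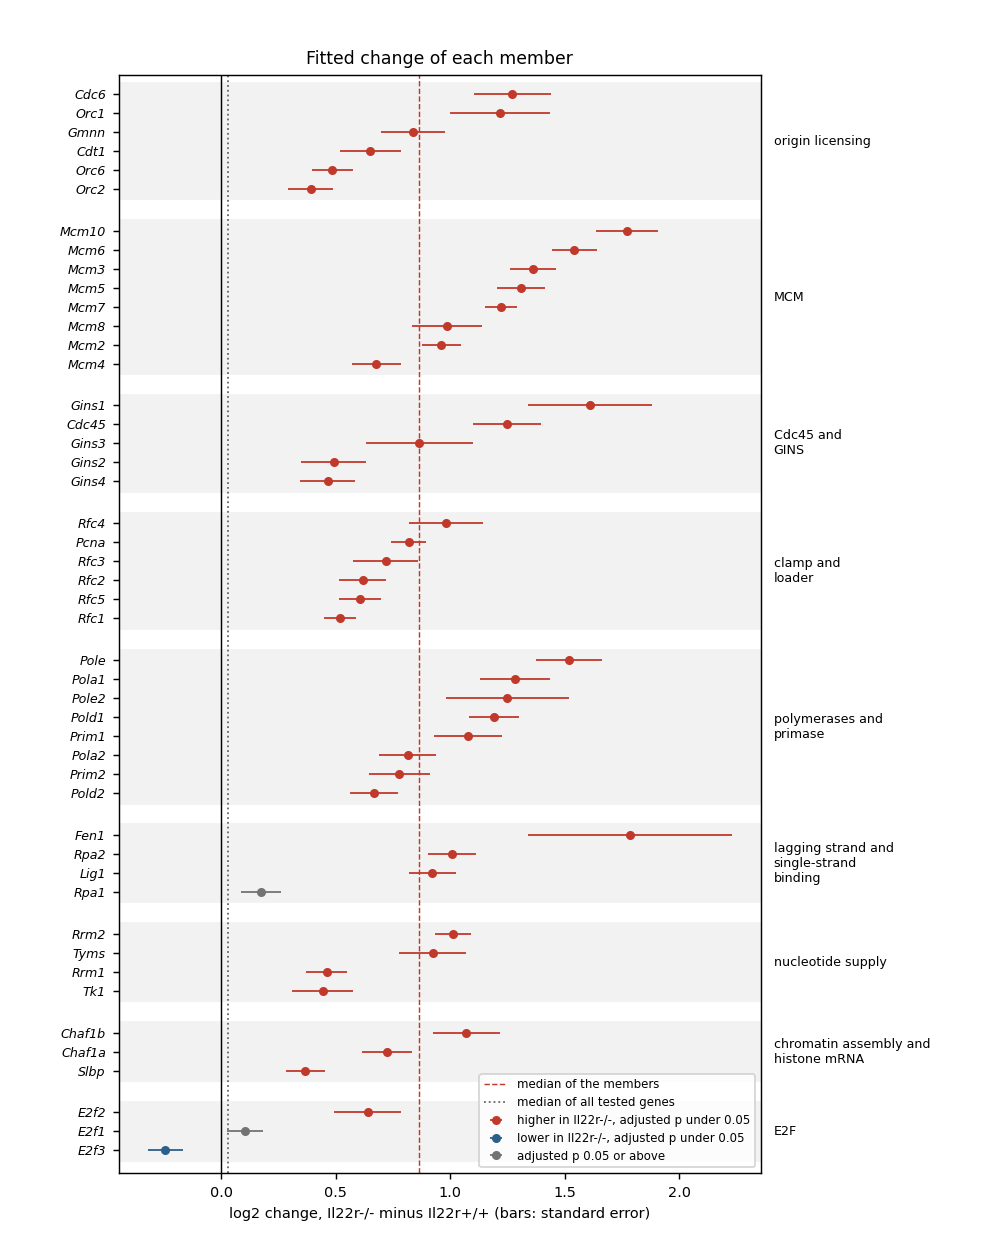
Fitted log2 change of each of the 47 genes (Il22r-/- minus Il22r+/+) with its standard error, grouped by role. The dashed line is the median of the 47 genes (0.86) and the dotted line that of all 15227 tested genes (0.03); 44 genes are called higher, E2f3 is called lower, and Rpa1 and E2f1 are not called.

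Of 4 genes of the lagging strand and of single-stranded DNA, 3 rose. Fen1, the nuclease that trims the flaps of lagging-strand fragments, had the largest fitted change of the 47 genes, but on few reads: 53, 52 and 27 reads in the Il22r-/- libraries against 21, 5 and 10 in the Il22r+/+ libraries (log2 change 1.78 ± 0.45, adjusted p = 0.00773). Without Il22r+/+ replicate 1 its log2 change was 2.44. Exons of other genes cover 84.2% of the Fen1 exon length, 78.8% by the antisense gene Gm10143 alone. Lig1, the ligase that seals the fragments, had 49.9, 52.6 and 46.8 CPM in Il22r-/- and 27.8, 28.3 and 22.7 CPM in Il22r+/+ (1.89-fold), and Rpa2 rose 2.01-fold.

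Rpa1, the largest subunit of the same single-strand binding complex as Rpa2, did not pass the test. It had 65.4, 72.1 and 59.4 CPM in Il22r-/-, against 56.3, 56.6 and 61.7 CPM in Il22r+/+, so the groups overlapped (log2 change 0.18 ± 0.09, adjusted p = 0.125, in a range from 0.0207 to 0.467 over the alternatives). Rpa1 passed without Il22r-/- replicate 3 (0.0207) and with library size as the only scaling (0.0251).

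All 4 nucleotide supply genes rose. Rrm2, the regulated small subunit of ribonucleotide reductase, which makes deoxynucleotides, had 135, 139 and 133 CPM in Il22r-/- and 63.7, 73.9 and 63.6 CPM in Il22r+/+ (2.02-fold, adjusted p = 5.01e-06). It had the highest level per length of the 47 genes in both genotypes, 49.3 ± 1.01 FPKM in Il22r-/- and 24.9 ± 2.15 FPKM in Il22r+/+. The large subunit gene Rrm1 had 203, 227 and 251 CPM in Il22r-/- and 155, 169.8 and 170.4 CPM in Il22r+/+, a smaller rise of 1.38-fold. Tyms, the thymidylate synthase, rose 1.90-fold. Tk1, the thymidine kinase of the salvage route, had 33.1, 38.8 and 27.1 CPM in Il22r-/- and 22.3, 26.4 and 24.2 CPM in Il22r+/+ (1.36-fold, adjusted p = 0.0192). The lowest Il22r-/- value of Tk1 lay just above the highest Il22r+/+ value, and the call was lost without Il22r-/- replicate 2 (adjusted p = 0.0908), without Il22r+/+ replicate 1 (0.0924) or 3 (0.0682), and on the FPKM scale with limma (0.059 to 0.115).

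The genes of chromatin assembly and histone mRNA rose, 3 of 3. Chaf1b, a subunit of the factor that places histones on new DNA, had 22.9, 22.5 and 21.1 CPM in Il22r-/- and 10.6, 12.7 and 8.47 CPM in Il22r+/+ (2.10-fold). Chaf1a, the large subunit, rose 1.65-fold, and Ubxn6 exons cover 52.5% of its exon length on the opposite strand. Slbp, which binds the stem-loop of histone mRNAs, had 38.5, 40.7 and 38.9 CPM in Il22r-/- and 30.8, 28.8 and 31.9 CPM in Il22r+/+. At 1.29-fold this was the smallest called rise of the 47 genes (adjusted p = 0.00475).

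Of the 3 E2F genes, 1 rose, 1 fell and 1 did not pass. E2f1, an activator of S phase genes, had 35.4, 36.7 and 37.0 CPM in Il22r-/- and 32.9, 33.8 and 34.8 CPM in Il22r+/+. Its groups were just apart, but the log2 change of 0.10 ± 0.08 did not pass (adjusted p = 0.314, in a range from 0.0553 to 0.622 over the alternatives). E2f2, also an activator, had 11.8, 11.5 and 11.7 CPM in Il22r-/- and 8.13, 7.996 and 6.28 CPM in Il22r+/+ (1.56-fold, adjusted p = 0.00496). E2f2 lies on chromosome 4 (136172394 at its start), 420.3 kb from the end of Il22ra1. Rpa2 (132778752 at its end) and, farther off, Orc1 (108614833 at its end) lie on the same chromosome, where Il22ra1 starts at 135728172. Some genes of the list read below lie there too, among them Clspn (126556935 at its start). The macrophage markers C1qa, C1qb and C1qc also lie there (136880129 to 136898803). For these genes the effect of sequence linked to the disrupted gene cannot be told apart from that of the receptor.

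E2f3 was the member called lower. It had 46.5, 45.6 and 49.5 CPM in Il22r-/-, against 56.1, 58.3 and 53.4 CPM in Il22r+/+, a log2 change of -0.24 ± 0.08 (1.18-fold lower in Il22r-/-, adjusted p = 0.0231). The groups did not overlap, a pattern found for 27.3% of all tested genes. The call was lost under 6 of the 16 alternatives, among them those without Il22r-/- replicate 1 (0.0539) or 2 (0.0678), without Il22r+/+ replicate 1 (0.0732) or 2 (0.0905) and with library size as the only scaling (0.145), in a range from 0.00302 over the alternatives. On that scaling the median of all tested genes lay 0.10 higher on the log2 scale and 63.6% of calls were higher instead of 51.6%, so changes as small as that of E2f3 are relative to the TMM scale.

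A list of 68 other genes of replication and its control was read beside them: the remaining ORC, polymerase and RPA subunits, the kinase and factors that fire origins, fork protection and nucleotide genes, histone chaperones, further E2F and retinoblastoma family genes and S phase checkpoint genes. Of 67 tested, 51 (76.1%) were higher, 2 lower and 14 not called, with a median log2 change of 0.65. Among all tested genes 23.6% were higher and 22.1% lower, with a median log2 change of 0.03. The remaining gene, Pold4, did not pass the filter (1, 2 and 1 reads in the Il22r-/- libraries, 8, 6 and 5 in the Il22r+/+ libraries). Of the other polymerase subunits here, also named after their values were seen, Pold3 and Pole4 rose 1.93-fold and 1.53-fold. Pole3 overlapped between the genotypes and was not called (log2 change 0.20 ± 0.16, adjusted p = 0.353). The largest rise was that of Exo1, an exonuclease of mismatch repair, with 13.9, 14.1 and 19.2 CPM in Il22r-/- and 4.45, 4.59 and 4.62 CPM in Il22r+/+ (3.44-fold, adjusted p = 1.7e-05). Ticrr, which fires licensed origins, rose 3.14-fold, Fbxo5, which restrains the ubiquitin ligase that removes geminin, 3.05-fold, and E2f7, a repressor of E2F targets, 2.99-fold. The firing kinase Cdc7 and its activator Dbf4, named after their values were seen, rose 2.63-fold and 2.02-fold.

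The 2 genes that fell were Rbl2 and Rrm2b. Rbl2, a retinoblastoma family gene linked to quiescent cells, had 41.2, 40.1 and 53.6 CPM in Il22r-/-, against 58.3, 63.7 and 67.0 CPM in Il22r+/+ (log2 change -0.49 ± 0.11, adjusted p = 0.00536). Rrm2b, the p53-regulated alternative to Rrm2, had 30.2, 30.6 and 26.5 CPM in Il22r-/- and 39.5, 41.3 and 33.8 CPM in Il22r+/+ (log2 change -0.39 ± 0.10, adjusted p = 0.011). Its call was lost without Il22r+/+ replicate 1 (0.05003) or 2 (0.0535), in a range from 0.00179 over the alternatives. Of 7 more genes, named after their values were seen, Rbl1 was higher (log2 change 0.69 ± 0.10) and Rb1 did not pass (0.12 ± 0.13, adjusted p = 0.504). Of the E-type cyclins that drive entry into S phase, Ccne2 rose 1.94-fold, while Ccne1 had 6.09, 7.63 and 8.60 CPM in Il22r-/- and 7.72, 6.74 and 7.11 CPM in Il22r+/+ and did not pass (adjusted p = 0.848). Of the partners of Orc1, Orc2 and Orc6 in the same complex, Orc5 rose 1.52-fold (log2 change 0.61 ± 0.12, adjusted p = 0.00251), while Orc3 and Orc4 overlapped between the genotypes and were not called, with log2 changes of -0.03 ± 0.09 and 0.07 ± 0.08. In the 52 genes of this list with a promoter window, 16 held an E2F-type octamer (30.8%), against 2.6% of all genes with a window.

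**Figure D4:**
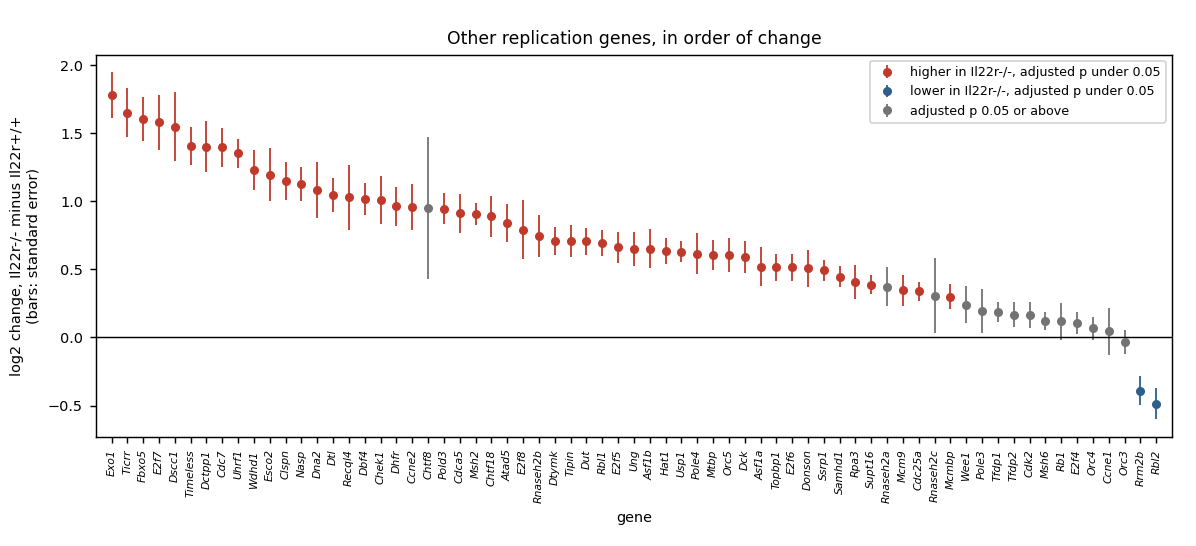
Fitted log2 change (Il22r-/- minus Il22r+/+) with its standard error for the 67 tested genes of the list of other replication genes, in order of size. Red points are the 51 genes called higher, blue points the 2 called lower (Rrm2b and Rbl2), and grey points the 14 not called.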

How the data were processed

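RNA from cultured mouse granulosa cells was sequenced in 6 libraries, 3 for each genotype, grouped by the genotype in their titles. Per the submitters' processing notes, reads were counted with featureCounts 1.5.0-p3 on mm10, with aligner, strand setting and filters not given in the sources used here. What the authors deposited was a table of raw read counts per Ensembl gene, which were tested as deposited, and FPKM values, which were the same counts divided by gene length and by a rescaled library total (0.936 to 1.05 times the count total). The file's gene coordinates equalled those of GENCODE M21 for all 47 members.

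Genes passing filterByExpr (15227) were scaled with TMM factors and tested with edgeR 4.0.16 (robust glmQLFit and glmQLFTest, genotype only, R 4.3.3). Log2 changes are Il22r-/- minus Il22r+/+, ± is the SE for log2 changes and the SD (n = 3) for levels, and adjusted p-values follow Benjamini and Hochberg over every tested gene. The SE was worked back from the test, as the absolute log2 change divided by the square root of the F statistic. The labels do not say whether libraries came from separate animals, so p-values measure only the spread between these libraries, which may be technical. Sampling noise alone did not cover the difference between any replicates (chi-square per gene 4.76 to 27.3), and none was counted as a duplicate.

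Alternatives were DESeq2 1.42.0, limma-voom (limma 3.58.1), other scalings and filters, limma on the FPKM values (log2 with 1 or 0.1 added), a replicate block and each library left out. The members, gene lists and naming rule (in each role set the largest and smallest called change, the most abundant gene and every gene not called or lower; in the other list the 4 largest called changes in each direction at 5 CPM or more) were chosen with earlier results of these data known. Exon overlaps were taken from GENCODE M21 and used for members only.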

Additional observations from a re-analysis of the deposited data

How the results depend on the processing

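Over 16 alternatives, the number of the 47 genes called higher lay between 42 and 45, and 46 had a log2 change above 0 in each. The share of all tested genes called higher ran from 9.22% (log2(FPKM + 1) without a filter) to 30.2% (library size alone). Of 752 values for single genes, 734 stayed on the same side of the threshold, 16 lost it, 2 gained it and none changed direction. The calls lost were those of Gins2, Gins3, Tk1 and E2f3. The number called lower was 0 with library size alone in edgeR (0 at an unadjusted p under 0.05) and 0 with a replicate block (1 at an unadjusted p under 0.05), and 0 to 1 with 1 library left out (1 at an unadjusted p under 0.05 each time), against 1 by DESeq2 and limma-voom. The count of other replication genes called lower was 1 to 2 with 1 library left out. The median log2 change of the 47 genes was 0.97 with library size alone, where the median of all tested genes was 0.13, and 0.65 on log2(FPKM + 1) with or without a filter, a scale that understates the change of low genes by construction. With 1 library left out it was 0.79 to 0.94.

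Samples with the same replicate number did not deviate together (correlations of -0.04 to 0.03 over genes, and not every library correlated best with its own number), so the numbers were not taken as pairs. With the replicate block E2f3 had an adjusted p of 0.0554, 44 of the 47 genes were higher, and 3271 genes were higher and 3134 lower in all. Promoter matches fell to 7 of 39 genes with the core GGCGGGAA (2.52% of all genes) and to 8 in the 150 bases before the start (1.44%). Depth limits Fen1, Gins1 and Pole2, with 36, 81 and 111 reads in all Il22r+/+ libraries. No group had enough libraries for a check of single outlying values.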
